A study of Mus musculus with 6 samples.

Results

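The SLAM family is a group of receptors that T and B cells use to recognise each other, and 8 of its genes were followed here in the RNA of sorted Tfh cells. They are the receptor genes *Slamf1*, *Cd84*, *Ly9*, *Slamf6*, *Slamf7* and *Cd48*, the adaptor gene *Sh2d1a*, which encodes SAP, and the kinase gene *Fyn*. They were picked by name, as the family's main lymphocyte receptors and SAP's pathway, from the 53379 genes in the count files, and all 8 were among the 14555 genes with enough counts to be tested. RNA was measured in 3 *Prdm1*-CKO mice (*Prdm1* fl/fl, CD11c-CRE+) and 3 CTL mice, which in this colony were either *Prdm1* fl/fl without CRE or *Prdm1* +/+ with CD11c-CRE. The labels do not say which of these genotypes each CTL mouse carried. All mice were females, between 6 and 8 weeks old when immunized with NP-CGG, a hapten on a carrier protein, in CFA, and spleens were taken 7 days later. Live TCRβ+ CD4+ CXCR5+ PD1+ cells were sorted, with no gate on FOXP3 in this experiment, and each mouse gave 1 library. CD11c drives CRE in DCs, so *Prdm1*, the gene for BLIMP-1, was deleted in DCs. Whether *Prdm1* was intact in the sorted T cells was not tested. The sample titles call the second group a Blimp1 KO and the genotype field a Blimp1 KD.

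Most SLAM receptors bind a second copy of themselves on the opposing cell, whereas CD48, which is held in the membrane by a lipid and has no cytoplasmic tail, binds CD2 and CD244. The tails of the signaling receptors carry a tyrosine motif that, once phosphorylated, is bound by the SH2 domain of SAP or its relatives, with SLAMF7 known to use the related adaptor EAT-2 and not SAP. SAP in turn brings in FYN, and T cells without SAP form poor lasting contacts with B cells and give little help in the germinal center. In T cells that lack SAP, the same motifs can recruit inhibitory phosphatases instead.

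The receptor genes are neighbours. On chromosome 1 of GRCm38, the 6 receptor genes and *Cd244a* lie within 394 kb, from 171559193 to 171953170, in a span that holds 8 protein-coding genes. *Ly9* lies on the minus strand from 171588624 to 171607410. Its bounds overlap those of *Cd244a* on the plus strand, but their annotated exons share 0 bases. *Sh2d1a* lies on chromosome X from 42502453 to 42529330 on the plus strand. *Fyn* lies on chromosome 10 from 39368855 to 39565381 on the plus strand, on the same chromosome as *Prdm1* and 4.87 Mb from it.

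The motif that joins the receptors to these adaptors can be read in their coding sequence. The longest coding frame of each gene was translated and searched for the codons of threonine, any residue, tyrosine, any 2 residues, and valine or isoleucine. The motif occurred at least once in 7.95% of 21549 protein-coding genes and at least 2 times in 0.608%. *Slamf1*, *Cd84*, *Ly9* and *Slamf6* had 2 matches each, *Slamf7* had 1, and *Cd244a* had 4, while *Sh2d1a* and *Fyn* had 0. *Cd48* had 1 match, which starts at codon 105 of 239, in exon 2 of 4. The 9 matches of the members other than *Cd48* are shown because adaptors with an SH2 domain dock at this motif, SAP in most of these receptors and EAT-2 in SLAMF7. Each is 18 coding bases, 5′ to 3′, from GENCODE M21 transcripts, with the tyrosine codon in capitals.
Slamf1, exon 5 of 7, chr1:171792339-171792356, plus strand: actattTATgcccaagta
Slamf1, exon 7 of 7, chr1:171799588-171799605, plus strand: acagttTATgccagtgtg
Cd84, exon 5 of 7, chr1:171884605-171884622, plus strand: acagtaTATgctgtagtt
Cd84, exon 6 of 7, chr1:171885601-171885618, plus strand: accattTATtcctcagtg
Ly9, exon 8 of 10, chr1:171593912-171593929, minus strand: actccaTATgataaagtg
Ly9, exon 9 of 10, chr1:171593438-171593455, minus strand: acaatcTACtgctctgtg
Slamf6, exon 6 of 9, chr1:171939437-171939454, plus strand: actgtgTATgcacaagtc
Slamf6, exon 7 of 9, chr1:171941664-171941681, plus strand: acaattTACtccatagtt
Slamf7, exon 6 of 6, chr1:171636327-171636344, minus strand: acatttTATtccactgtg
A match of letters describes the sequence and does not show that an adaptor was bound in these cells.

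Total counts per library ran from 7147601 to 16973392. Members had between 455 and 12062 counts in a mouse, far above the smallest level a library could show, 3 counts or between 0.169 and 0.443 CPM (counting error only). CPM here is the count of a gene scaled to a common library size with TMM factors. CTL replicate 2 stood apart: its expression correlated with that of the remaining libraries at 0.875 on average, where the others reached 0.923 to 0.944. The Tfh genes *Cxcr5* (254 to 476 CPM) and *Pdcd1*, which encodes PD-1 (187 to 384 CPM), were present in every mouse, as was the Treg factor *Foxp3* (134 to 181 CPM). Markers of cells outside the gate were present as well. *Lyz2*, a lysozyme gene of macrophages, was at 1759 to 3468 CPM, and *Ighm*, the IgM heavy chain gene of B cells, was at 2021 to 4335 CPM. Per kb of merged exons, their means over all mice were 2239 and 1729 CPM, against 224 CPM for *Cd4* and 99.9 CPM for *Cxcr5*. Levels here are therefore those of the whole sorted sample, and the part of such cells in the members' levels was not tested. *Prdm1* itself was at 28.8, 29.9 and 27.5 CPM in CTL mice and at 30.1, 30.7 and 30.8 CPM in *Prdm1*-CKO mice, with a log2 fold change of 0.089 ± 0.19 (SE; adjusted p of 0.996 by edgeR). Since the deletion is in DCs, this level is no check of the labels.

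Per length of transcript, *Cd48* was the most abundant member in every mouse. It stood at 300 ± 23.2 CPM per kb of merged exons (SD, n = 3) in CTL and 315 ± 24.9 CPM per kb (SD, n = 3) in *Prdm1*-CKO mice. *Slamf6*, which encodes Ly108, followed at 62.6 to 76.6 CPM per kb over the 6 mice. Its range met that of *Ly9*, the gene for CD229, at 45.9 to 66.9 CPM per kb. *Fyn* (23.3 to 42.8), *Cd84* (24.7 to 35.1) and *Sh2d1a* (22.9 to 35.7 CPM per kb) overlapped and cannot be put in order. *Slamf7* (12.7 to 20.7) and *Slamf1* (11.7 to 16.4 CPM per kb) lay below them in every mouse and overlapped each other. Within each library, *Cd48* was above *Slamf6*, *Slamf6* above *Ly9* and *Ly9* above the rest in all 6 mice, while the order of the other members varied between mice. With the longest annotated transcript as the length, *Cd48*, *Slamf6* and *Ly9* held the first places again, and 4 lower members changed place.

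**Figure D1:**
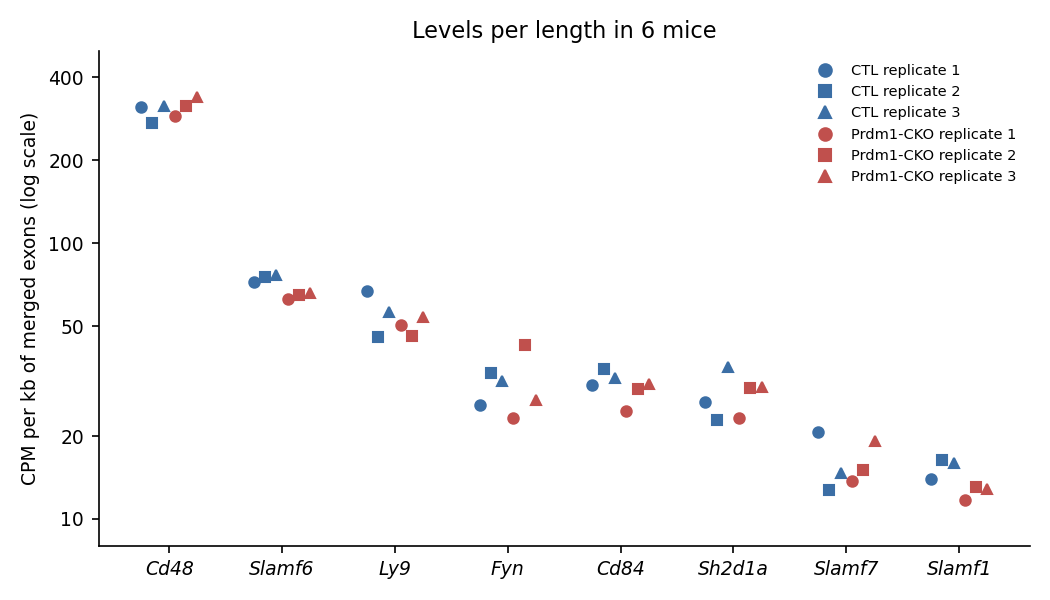
Level of each member per kb of merged exons (CPM per kb, log axis), with 1 point per mouse, CTL in blue and Prdm1-CKO in red. Cd48 lies between 273 and 340 in all 6 mice, above every other member, and Slamf7 and Slamf1 lie lowest.

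The comparison of *Prdm1*-CKO with CTL mice asks whether Tfh cells that form when DCs lack BLIMP-1 carry other amounts of these receptors. No member passed an adjusted p of 0.05 in edgeR's quasi-likelihood test, where 0% of the 14555 genes passed in either direction. At an unadjusted p under 0.05 the count of members was again 0, against 0.928% of all genes higher and 1.42% lower in *Prdm1*-CKO mice, or 2.35% in either direction. DESeq2's Wald test, run on 26030 genes, also called 0 members, against 0.0269% of genes called higher and 0.00768% called lower. Of the members, 6 had log2 fold changes below 0 and 2 above 0, with a median of -0.10, against a median of 0.01 over all genes tested, of which 48.9% were below 0. In 2 of 8 members, *Slamf1* and *Slamf6*, every *Prdm1*-CKO mouse lay below every CTL mouse, an arrangement found in 3.86% of all genes tested. The opposite arrangement was found in 0 members and in 4.56% of all genes tested. P values from edgeR and DESeq2 set the difference between groups against the spread among the 3 mice within each group. An exact permutation test at this size cannot give a two-sided p under 0.1.

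*Slamf1* encodes SLAM (CD150), a receptor that binds itself and takes part in cytokine production by T cells. It was at 86.5, 101 and 98.2 CPM in CTL replicates 1, 2 and 3 and at 71.8, 80.6 and 78.9 CPM in the *Prdm1*-CKO mice, in the same order of replicates. The groups do not overlap, and CTL replicate 1 is the CTL mouse nearest to the *Prdm1*-CKO mice. The log2 fold change was -0.30 ± 0.15 (SE, with an adjusted p of 0.996 and an unadjusted p of 0.0844 by edgeR). The exact permutation p was 0.1, the smallest possible, which groups of 3 that do not overlap always give. The 95% interval of the ratio of *Prdm1*-CKO to CTL ran from 0.635 to 1.04. By flow cytometry, the paper reports that the share of Tfh cells with SLAM protein did not differ between CTL and *Prdm1*-CKO mice. That is a share of positive cells, gated as FOXP3-negative, and not an RNA level.

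*Slamf6* encodes a receptor that binds itself and can pass either activating or inhibitory signals, depending on whether SAP is there. It was at 782, 816 and 829 CPM in CTL and at 678, 702 and 713 CPM in *Prdm1*-CKO mice. The 2 groups again do not overlap, and mice of the same group lay close together. The log2 fold change was -0.21 ± 0.11 (SE; adjusted p of 0.996 by edgeR, unadjusted p = 0.0945; exact permutation p = 0.1). The interval of the ratio was 0.72 to 1.03. Its SD within groups was 0.04 on the log2 scale, lower than in all but 1% of the 500 tested genes nearest to it in level, whose median SD was 0.18. Within each library *Slamf6* had between 8.1 and 9.45 counts for each count of *Slamf1*, with CTL mice at 9.05, 8.1 and 8.45 and *Prdm1*-CKO mice at 9.45, 8.71 and 9.03, so this ratio overlapped between groups.

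*Cd84* encodes a self-binding receptor that helps T cells stay attached to B cells. It was at 192, 220 and 205 CPM in CTL and 155, 186 and 194 CPM in *Prdm1*-CKO mice. *Prdm1*-CKO replicate 3 lay just above CTL replicate 1, so the groups overlap. Its log2 fold change was -0.21 ± 0.15 (SE; adjusted p of 0.996 by edgeR), with an interval of the ratio from 0.683 to 1.1. Without *Prdm1*-CKO replicate 1, its lowest mouse, the value was -0.11.

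*Ly9* encodes a self-binding receptor that is broadly present on lymphocytes. It was at 221, 152 and 187 CPM in CTL and 167, 152 and 178 CPM in *Prdm1*-CKO mice. CTL mice held both ends of the range, and the groups overlap. Its log2 fold change was -0.17 ± 0.17 (SE; adjusted p of 0.996 by edgeR), with an interval of the ratio from 0.674 to 1.17. Its value rests on single CTL mice, since it was -0.31 without CTL replicate 2 and -0.044 without CTL replicate 1.

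**Figure D2:**
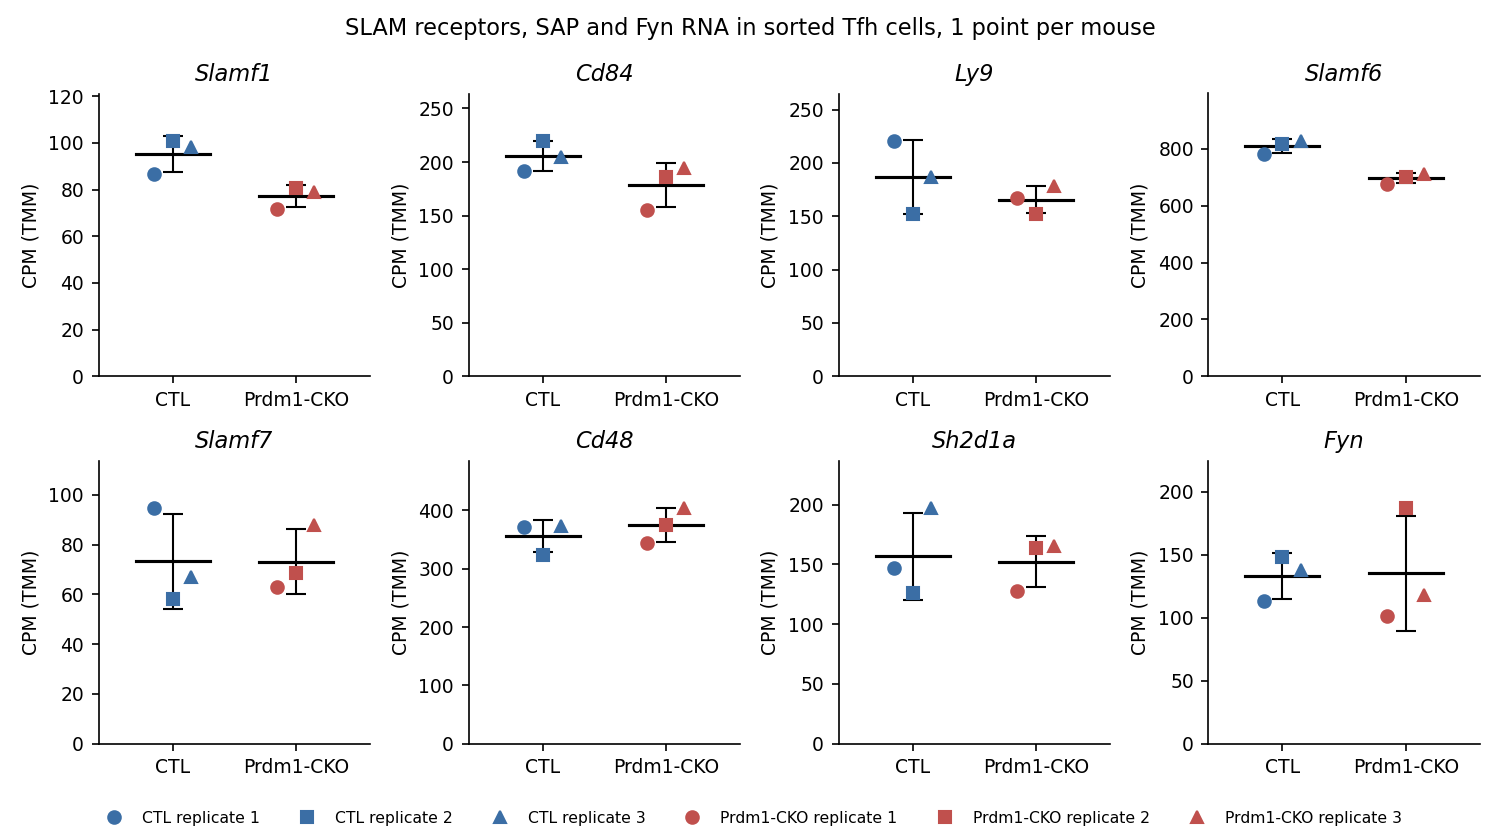
CPM of each member in each mouse (axes from 0), with circles, squares and triangles for replicates 1, 2 and 3, and a line and bar for the mean and SD of the 3 mice. Slamf1 and Slamf6 are lower in every Prdm1-CKO mouse than in every CTL mouse, and the groups overlap in the other members.

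*Slamf7* encodes CRACC, a receptor known best from NK cells, plasma cells and activated myeloid cells. It was at 94.7, 58.1 and 67.2 CPM in CTL and 62.9, 68.6 and 88 CPM in *Prdm1*-CKO mice. The highest and the lowest mouse were both CTL mice. The log2 fold change was -0.0057 ± 0.23 (SE; adjusted p of 0.998 by edgeR), with a wide interval of the ratio from 0.688 to 1.44.

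*Cd48* was at 371, 324 and 373 CPM in CTL and 345, 375 and 404 CPM in *Prdm1*-CKO mice. The groups overlap, with the highest 2 mice in the *Prdm1*-CKO group and the lowest being CTL replicate 2. Its log2 fold change was 0.073 ± 0.13 (SE; adjusted p of 0.996 by edgeR), with an interval of the ratio from 0.849 to 1.3. Without CTL replicate 2 the value was -0.0005.

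*Sh2d1a* was at 147, 126 and 197 CPM in CTL and 128, 164 and 165 CPM in *Prdm1*-CKO mice. CTL replicate 3 was highest and CTL replicate 2 lowest, so the *Prdm1*-CKO mice lie inside the CTL range. The log2 fold change of this adaptor was -0.037 ± 0.20 (SE; adjusted p of 0.996 by edgeR), with an interval of the ratio from 0.706 to 1.35. Its annotated exons share 1465 of 5505 bases with *Tenm1* on the opposite strand, and the sources used here do not say whether reads were counted by strand. *Tenm1* was covered by 4, 2 and 27 reads in CTL libraries and by 2, 18 and 14 in those of *Prdm1*-CKO mice, against at least 1066 counts of *Sh2d1a*. The part of shared bases in the *Sh2d1a* values was not tested. *Slamf7* likewise shares 423 exon bases with the antisense gene *Gm37787*, which had between 3 and 9 counts.

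*Fyn*, the Src family kinase that SAP recruits, was at 113, 148 and 138 CPM in CTL and 101, 187 and 118 CPM in *Prdm1*-CKO mice. *Prdm1*-CKO replicate 1 was the lowest and *Prdm1*-CKO replicate 2 the highest of the 6 mice. Its log2 fold change was 0.023 ± 0.24 (SE; adjusted p of 0.998 by edgeR), with an interval of the ratio from 0.69 to 1.5. The value was -0.27 without *Prdm1*-CKO replicate 2 and 0.20 without *Prdm1*-CKO replicate 1. *Fyn* had the widest spread of the members, with an SD within groups of 0.35 on the log2 scale, against a median of 0.22 for genes of like level.

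**Figure D3:**
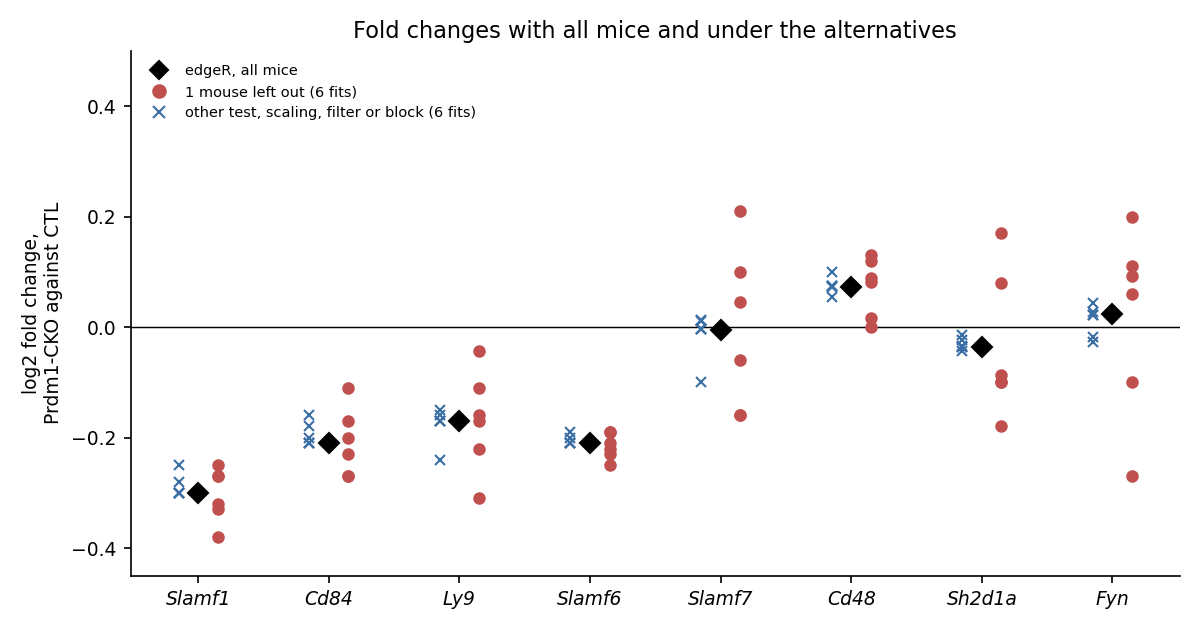
Log2 fold change of each member, Prdm1-CKO against CTL, with all mice (black diamond), with 1 mouse left out (red) and with another test, scaling, filter or block (blue crosses). Slamf1, Cd84, Ly9 and Slamf6 stay below 0 in each of the 12 alternatives, and Slamf7, Cd48, Sh2d1a and Fyn cross 0 in some of them.

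Without CTL replicate 2, the library that stood apart, the log2 fold changes from edgeR were -0.27 for *Slamf1*, -0.17 for *Cd84* and -0.22 for *Slamf6*. They were -0.16 for *Slamf7*, -0.18 for *Sh2d1a* and 0.093 for *Fyn*, and the adjusted p was 0.999 for each of these 6 genes. *Slamf1* and *Slamf6* still had groups that do not overlap, and *Ly9* joined them, where 8.23% of all genes tested were lower without overlap. Without CTL replicate 1 or without *Prdm1*-CKO replicate 3, *Cd84* joined instead, against 10.3% and 6.73% of all genes.

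Of 11 Tfh and T cell markers, 1 showed the arrangement of *Slamf1* and *Slamf6*, against 3.86% of all genes tested. The list had a median log2 fold change of -0.071 with 4 genes above 0 and 7 below. *Cd4*, the coreceptor gene by which the cells were sorted, was at 894, 1058 and 1029 CPM in CTL and 821, 772 and 845 CPM in *Prdm1*-CKO mice. Its groups do not overlap, and its log2 fold change was -0.29 ± 0.12 (SE, with an adjusted p of 0.996 and an unadjusted p of 0.0465 by edgeR). The unadjusted p from edgeR stayed under 0.05 with DESeq2 size factors (0.0483) and without CTL replicate 1 (0.0272). Under every other alternative it was above 0.05, as in edgeR with the replicate block (0.0603) and in DESeq2's Wald test (0.0888). *Cd3e*, a subunit of the T cell receptor complex, overlapped between groups, at 560, 640 and 784 CPM in CTL and 638, 541 and 669 CPM in *Prdm1*-CKO mice. In bulk RNA, fewer cells of a type and less RNA per cell cannot be told apart.

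Members were also set against *Cd4* and *Cd3e* within each library, a step chosen after the values were seen. Since *Cd4* was taken because it had the arrangement of *Slamf1* and *Slamf6*, ratios to it restate that likeness and are given with no test. The count of *Slamf1* per count of *Cd4* was 0.0967, 0.0951 and 0.0954 in CTL and 0.0874, 0.104 and 0.0934 in *Prdm1*-CKO mice. On this scale the *Prdm1*-CKO mice lie on both sides of the CTL mice, with a difference in mean log2 ratio of -0.014. The count of *Slamf6* per count of *Cd4* was 0.875, 0.771 and 0.806 in CTL and 0.826, 0.91 and 0.843 in *Prdm1*-CKO mice, with a difference of 0.073. Against *Cd3e*, *Slamf1* differed by -0.21 (exact permutation p = 0.2) and *Slamf6* by -0.12 (exact permutation p = 0.7), and both overlapped between groups. *Cd48* per count of *Cd4* was 0.415, 0.306 and 0.363 in CTL and 0.42, 0.486 and 0.478 in *Prdm1*-CKO mice. Here the groups do not overlap, as in 19.2% of all genes tested on this scale, and against *Cd3e* they overlapped (exact permutation p = 0.4). The ratio to *Cd3e* was tested for 8 members. The part of the T cell share of RNA in the *Slamf1* and *Slamf6* values was not tested.

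The SLAM genes known from other cells were set beside markers of those cells. *Cd244a*, the receptor for CD48 on NK and myeloid cells, was at 101, 23.4 and 44.3 CPM in CTL and 63.3, 68.2 and 80.9 CPM in *Prdm1*-CKO mice. *Slamf8*, a receptor of macrophages, was at 47, 13.5 and 46.6 CPM in CTL and 40.6, 30.2 and 60.4 CPM in *Prdm1*-CKO mice. CTL replicate 2 was lowest in both, as it was in *Slamf7*. The summed level of 14 macrophage and DC markers was 4944, 2356 and 3513 CPM in CTL and 4766, 4019 and 4870 CPM in *Prdm1*-CKO mice, with CTL replicate 2 lowest again. *Lyz2* made up 68.9% to 77.5% of this sum. Taken singly, 10 of the 14 markers were lowest in CTL replicate 2, but the DC genes *Flt3* (28.6 CPM), *Zbtb46* (29.3 CPM) and *Clec9a* (9.22 CPM) were highest there, and *Itgax* was lowest in CTL replicate 3. The summed level of 8 CD8 and NK cell markers was 122, 173 and 162 CPM in CTL and 98.4, 113 and 147 CPM in *Prdm1*-CKO mice, highest in the mouse where *Cd244a* was lowest. Of these 14 markers, 14 were above 0 in every mouse, among them *Csf1r*, the M-CSF receptor gene, at 319 to 825 CPM. CTL replicate 2 was also lowest in 5 of 5 plasma cell markers and in 6 of 10 B cell markers. The plasma cell markers summed to 260 CPM there and to 414 CPM in both CTL replicate 1 and CTL replicate 3. In *Prdm1*-CKO mice they summed to 399 to 676 CPM, so the groups overlap. The part of these cells in the values of *Slamf7*, *Slamf8* and *Cd244a* was not tested.

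*Slamf9*, a further family member, was at 7.45, 4.73 and 7.68 CPM in CTL and 5.06, 10.1 and 12.4 CPM in *Prdm1*-CKO mice. *Cd244a*, *Slamf8* and *Slamf9* had log2 fold changes of 0.32, 0.29 and 0.47, and none passed the test (adjusted p = 0.996 for each from edgeR). *Slamf9* was at 0.78 without *Prdm1*-CKO replicate 1, at 0.27 without CTL replicate 2 and at 0.20 without *Prdm1*-CKO replicate 3. Without CTL replicate 2, *Cd244a* was at -0.05 and *Slamf8* at -0.11, and without CTL replicate 1, *Cd244a* was at 1.05 (adjusted p = 0.669 from edgeR).

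**Figure D4:**
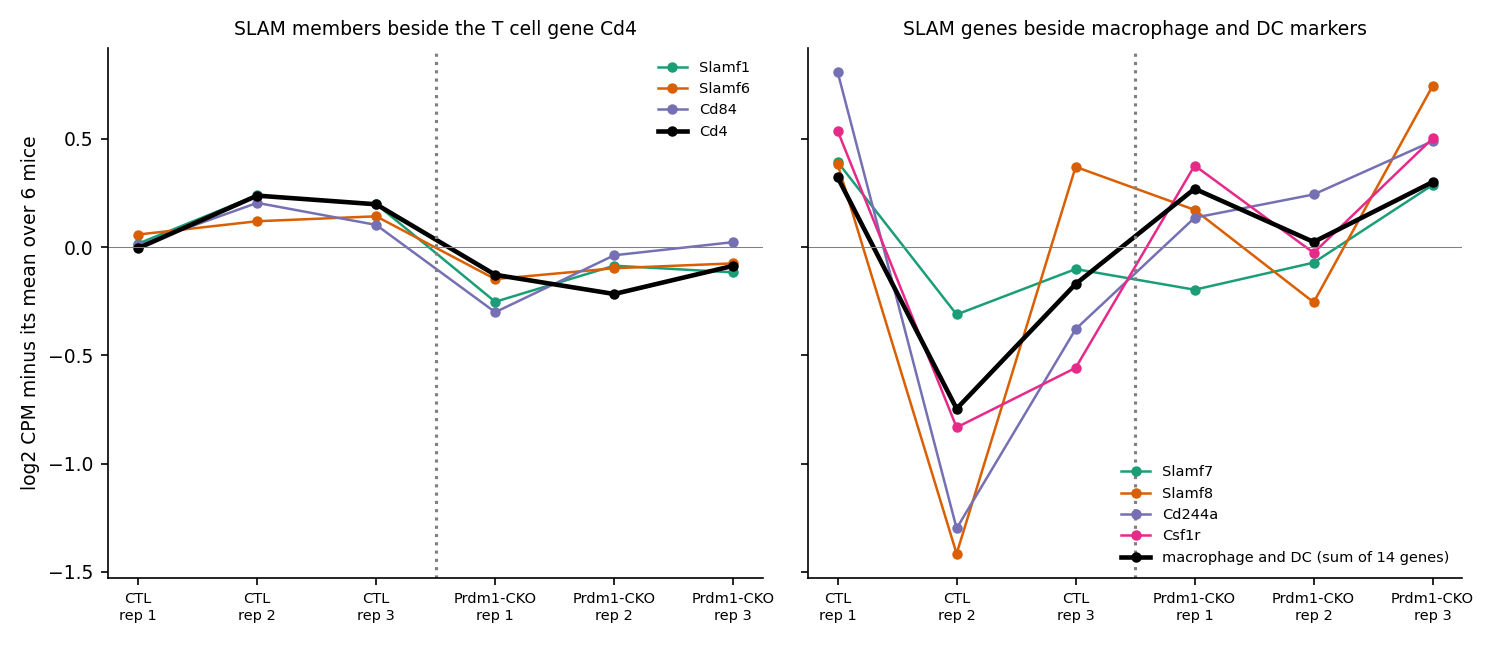
Log2 CPM minus its mean over the 6 mice, in each mouse. On the left, Slamf1, Slamf6 and Cd84 lie beside Cd4 (black); Slamf1, Slamf6 and Cd4 are higher in every CTL than in every Prdm1-CKO mouse, and Cd84 overlaps. On the right, Slamf7, Slamf8, Cd244a and Csf1r lie beside the sum of 14 macrophage and DC markers (black), of which Lyz2 makes up 68.9% to 77.5%; CTL replicate 2 is lowest in all 5 lines, as in 10 of the 14 markers taken singly.

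The adaptors related to SAP differed in level. *Sh2d1b1*, which encodes EAT-2, an adaptor known from NK and myeloid cells, was at 16.3, 15.2 and 8.71 CPM in CTL and 19.1, 16.8 and 22.7 CPM in *Prdm1*-CKO mice. The *Prdm1*-CKO mice were all above the CTL mice, at a log2 fold change of 0.54 ± 0.31 (SE; adjusted p of 0.996 by edgeR). Without CTL replicate 3, its lowest mouse, the value was 0.32. Per kb of merged exons its mean level over the 6 mice was 6.47 CPM, against 28 CPM for *Sh2d1a*. *Sh2d1b2* had 1 count in *Prdm1*-CKO replicate 1 and 0 in the other mice, and was not tested.

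The remaining genes of the pathway, from a list of 27 of which 26 were tested, gave no call in either direction in edgeR, with 0 also at an unadjusted p under 0.05. Of the 26, 1 (*Sh2d1b1*) was higher and 1 (*Dok2*) lower without overlap, against 4.56% and 3.86% of all genes tested. Their median log2 fold change was 0.036, with 16 genes above 0 and 10 below. *Lck*, the Src family kinase of the T cell receptor, was the most abundant per length, at 526 CPM per kb. It was at 1568 ± 192 CPM (SD, n = 3) in CTL and 1511 ± 128 CPM (SD, n = 3) in *Prdm1*-CKO mice. *Prkcq*, the gene for PKC-theta, to which SLAM and SAP signals lead, was at 359 ± 31.3 and 336 ± 53.9 CPM (SD, n = 3 each). *Cd2*, whose product binds CD48, was at 423 ± 41.8 and 436 ± 19.3 CPM (SD, n = 3 each), with a log2 fold change of 0.045. *Il4*, a cytokine gene of Tfh cells that depends on SLAM and SAP, was at 6.01, 2.48 and 3.39 CPM in CTL and 4.89, 5.07 and 4.58 CPM in *Prdm1*-CKO mice. The *Prdm1*-CKO mice lie within the CTL range.

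Of 8 inhibitory phosphatases, adaptors and ligases, 5 had log2 fold changes below 0. *Ptpn6*, which encodes SHP-1, was at 605 ± 71.9 CPM in CTL and 621 ± 65.7 CPM (SD, n = 3 each) in *Prdm1*-CKO mice, and *Ptpn11*, which encodes SHP-2, at 103 ± 23 and 104 ± 6.37 CPM (SD, n = 3 each). *Dok2*, an adaptor that binds RasGAP, was at 209 ± 17.8 and 183 ± 8.43 CPM (SD, n = 3 each), with groups that do not overlap and a log2 fold change of -0.19 ± 0.14 (SE; adjusted p of 0.996 by edgeR). *Cblb*, a ubiquitin ligase that restrains T cell activation, had the lowest log2 fold change of the list, -0.49 ± 0.31 (SE; adjusted p of 0.996 by edgeR). *Cblb* spread widely among CTL mice, at 115 ± 52.3 CPM (SD, n = 3), and little among *Prdm1*-CKO mice, at 82.4 ± 1.9 CPM (SD, n = 3), and its log2 fold change was -0.11 without CTL replicate 2 and -0.76 without CTL replicate 3 (adjusted p of 0.76 by edgeR). The 3 vesicle genes *Becn1*, *Pik3c3* and *Uvrag*, which act in autophagy and with SLAM in phagosomes, had log2 fold changes of 0.034, 0.13 and 0.39, and none was called. *Uvrag* was at 0.16 without CTL replicate 1 and at 0.70 without CTL replicate 2.

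**Figure D5:**
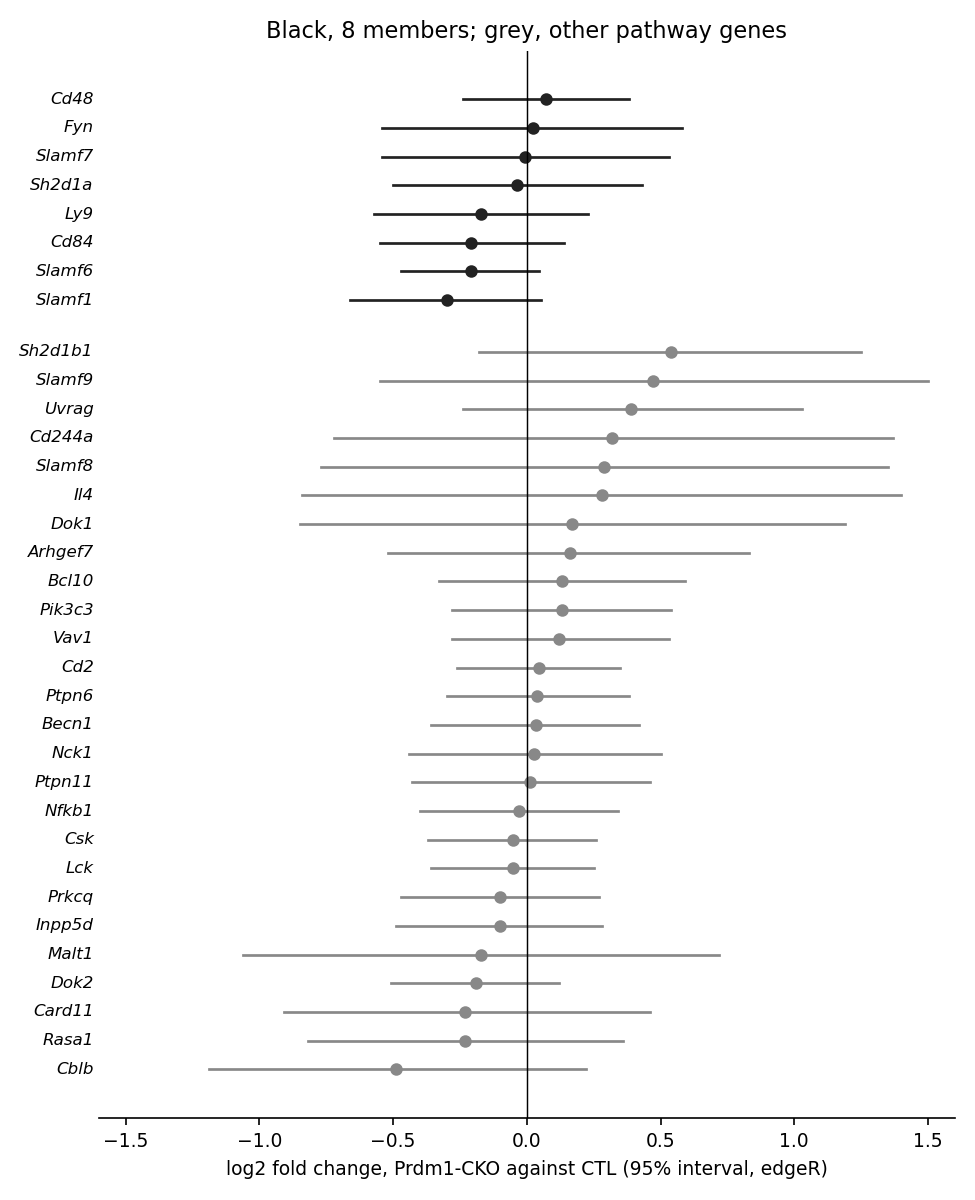
Log2 fold change of Prdm1-CKO against CTL with its 95% interval from edgeR, for the 8 members (black) and the 26 tested genes of the pathway list (grey). Every interval includes 0, and the intervals of Slamf6 and Slamf1 reach least above it.

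The genes nearest to a member in course across the mice were found by the mean absolute difference of log2 CPM, each gene centred on its own mean, over 6 mice and 11671 other protein-coding genes. *Nme7* was nearest to *Sh2d1a*, at 0.016, with 18.1, 15.1 and 24.7 CPM in CTL and 15.5, 20.1 and 20.3 CPM in *Prdm1*-CKO mice. *Pcgf5* followed at 0.043, and the median gene was at 0.34 from *Sh2d1a*. *Kmt2e* and *Pik3ip1* were nearest to *Slamf1*, at 0.024 and 0.026, and *Smc4* and *Ift46* to *Cd84*, at 0.028 and 0.041. *Tsr2* and *Itgb2*, an integrin gene, were nearest to *Ly9*, at 0.056 and 0.057, and *Uspl1* and *Zfp213* to *Slamf7*, at 0.067 and 0.073. *Cep164* and *Tlk2* were nearest to *Fyn*, at 0.029 and 0.048. *Selenom* and *Tbc1d10c* were nearest to *Slamf6*, at 0.022 and 0.035, and *Npm1* and *C1d* to *Cd48*, both at 0.035. *Selenom* was at only 2.02 to 2.36 CPM, so its nearness to *Slamf6* rests on few counts. Among the members, *Slamf1* and *Cd84* were nearest to each other, at 0.061, with *Cd84* at rank 26 among the genes nearest to *Slamf1*. *Slamf1* was the member nearest to *Slamf6*, at 0.062. These distances describe 6 libraries and carry no test.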

How the data were processed

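Per the labels and the study's methods, 50 ng of RNA per mouse entered Smart-seq2 libraries, which were read as pairs of 25 bp. Per the submitters' processing notes, STAR 2.4.2a and GRCm38.p6 were used. The authors deposited raw counts per gene from featureCounts, with GENCODE mouse release 9. Counting by strand and the treatment of multiply aligned reads are not given in the sources used here. No pair of libraries was identical. Identifiers were matched without version to GENCODE M21 (53274 of 53379), and the 8 members have the same version in both.

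Counts were tested in edgeR 4.0.16 (R 4.3.3) with TMM factors, filterByExpr, and the quasi-likelihood F test of 3 against 3 mice, two-sided, with Benjamini-Hochberg adjustment over 14555 genes. Standard errors were derived from F. Log2 CPM used a prior count of 2. On simulated counts for this comparison over 14555 genes, 200 genes above a minimum mean count were changed 4-fold. The test recovered 77% of them with 7 false calls. A 4-fold change is larger than the estimate for any member, and recovery of differences of the members' size was not simulated. Alternatives were DESeq2 1.42.0 (its size factors and its Wald test), 2 filters, the replicate number as a block, voom with quality weights in limma 3.58.1, and each mouse left out. Ratios to *Cd4* and *Cd3e* were added after seeing the data. Marker lists cover Tfh, B, plasma, macrophage and DC, CD8 and NK, Treg, platelet, erythroid, and basophil and mast cells. Genes named by rule are the members, *Prdm1*, the highest and lowest of each list, list genes whose groups do not overlap, and the nearest 2 genes to each member; *Cd3e*, *Cxcr5*, *Pdcd1*, *Lyz2*, *Ighm*, *Csf1r*, *Flt3*, *Clec9a*, *Itgax*, *Jchain* and the further pathway genes were chosen after their values were seen. The members and lists were chosen with earlier results of these data known. Protein sequences were not used here.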

Additional observations from a re-analysis of the deposited data

How the results depend on the processing

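No member was called under any alternative, with adjusted p from 0.706 to 1. DESeq2's Wald test called 7 genes higher and 2 lower over all genes, and edgeR without a filter called 1 higher, against 0 and 0; the cause was not tested. *Slamf7*, at -0.0057, was at 0.013 without a filter and at 0.011 with the replicate block. *Fyn*, at 0.023, was at -0.018 with the replicate block and at -0.027 in voom. Residuals of same-numbered mice correlated at 0.16, 0.028 and 0.016, under the 0.1 used here for pairing in 2 of 3, and the labels do not say what a number shares. The block moved no call of a member. Leaving out each mouse gave log2 fold changes from -0.16 to 0.21 for *Slamf7*, from -0.0005 to 0.13 for *Cd48*, from -0.18 to 0.17 for *Sh2d1a*, from -0.27 to 0.20 for *Fyn*, from -0.05 to 1.05 for *Cd244a* and from -0.11 to 0.53 for *Slamf8*. Members higher in *Prdm1*-CKO mice without overlap numbered from 0 to 1, with *Cd48* added without *Prdm1*-CKO replicate 1, where 8.13% of all genes were so arranged. With ratios to *Cd4*, 1 member was higher and 0 were lower without overlap, against 19.2% and 0.852% of all genes, a shift that the choice of *Cd4*, itself lower without overlap, builds in. With ratios to *Cd3e*, 0 were lower, against 1.66% of all genes. In CPM the count was 2 lower. With the longest transcript as the length, 4 members changed rank. With 3 mice against 3, these data bound the members' ratios but cannot show small differences.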

Other observations

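The marker lists describe genes of other cells in the same libraries, and no marker was called by edgeR after adjustment. The 10 B cell markers had log2 fold changes above 0 in 10 of 10, with a median of 0.75, and their summed level was 2129 to 3836 CPM in CTL and 3415 to 4555 CPM in *Prdm1*-CKO mice, with *Ighm* at 93% to 96.1% of the sum. CTL replicate 2 was lowest in 6 of these 10, and without it the median was 0.41 with 9 of 10 above 0. *Pax5*, the B cell factor, was highest in fold change at 1.48 and had 0 counts in CTL replicate 2, and *Cd22* was lowest at 0.04. The 5 plasma cell markers had a median of 0.94 and a summed level of 260 to 414 CPM in CTL and 399 to 676 CPM in *Prdm1*-CKO mice, with *Jchain* at 90.7% to 97.5% of the sum. CTL replicate 2 was lowest in 5 of 5, and without it the median was 0.52 with 4 of 5 above 0, a step added after seeing the data.

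The 8 CD8 and NK cell markers had a median of -0.46, and their summed level was 122 to 173 CPM in CTL and 98.4 to 147 CPM in *Prdm1*-CKO mice. *Cd8a* had the lowest value, at -2.02. The 5 Treg markers lay between -0.30 (*Gpr83*) and -0.14 (*Foxp3*), and the 11 Tfh markers between -0.29 (*Cd4*) and 0.068 (*Il21*). Of 5 platelet markers, 4 had 0 counts in some mouse and 1, *Itga2b*, was tested, at -1.07. The 4 erythroid markers tested lay between 1.10 (*Alas2*) and 1.88 (*Hbb-bs*), and the 5 basophil and mast cell markers between -1.59 (*Ms4a2*) and 0.44 (*Gata2*). Of the 14 macrophage and DC markers, 11 were above 0, from -0.91 for *Zbtb46* to 1.49 for *C1qc*. Without CTL replicate 2 the median of the macrophage and DC markers was 0.18 in place of 0.42, that of the Tfh markers -0.16 in place of -0.071, and *Itga2b* was at -0.24.

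Of 63 markers tested, 8 were higher and 4, *Cd4* among them, were lower without overlap, against 4.56% and 3.86% of all genes tested. The first included *Cd79b* (0.79), *Pax5* and *Cr2* (1.25) of B cells, *Mzb1* (0.94) and *Derl3* (1.11) of plasma cells, and *C1qc* and *Cd5l* (0.92) of macrophages. Of the CD8 and NK markers, *Cd8a* and *Gzma* (-1.14) were lower and *Cd8b1* (0.44) was higher without overlap, and of the basophil and mast cell markers *Fcer1a* (-1.57) was lower. *Eomes* had the highest CD8 and NK value, at 0.45, and the plasma cell values were lowest for *Sdc1*, at 0.032, and highest for *Tnfrsf17*. All values are log2 fold changes from edgeR, and the part of these cells in the SLAM values was not tested.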
